A study of Mus musculus with 31 samples.

Results

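The first wave of transcript changes in D10.G4.1 cells given neuromedin U (NmU) was measured at 0.8 h, the earliest time of the series, by setting 4 arrays of NmU-treated cells against 4 arrays of cells given phosphate-buffered saline (PBS) for the same time. These 8 arrays were chosen by their titles from 31 in the whole series, which also sampled both treatments at 3, 6 and 12 h. D10.G4.1 is a mouse T cell line of the type 2 helper (Th2) kind grown from 1 clone, and no other line was used. Each sample was total RNA on its own 1-colour array, read as a signal for each probe set, the set of oligonucleotides that reports a transcript. The labels number the replicates of each group 1 to 4 and do not say whether they were separate cultures, so the p-values speak of the scatter among the samples, part or all of which could be technical. The dose of peptide is not given in the sources used here.

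NmU is a neuropeptide released by sensory and enteric neurons among others, and its receptor Nmur1 is carried by type 2 lymphoid cells and some T cells. The receptor couples to Gq, which activates phospholipase C and through it releases calcium and activates protein kinase C. Within an hour of such a signal, cells transcribe immediate early genes without making new protein first: transcription factors such as Egr1 and Fos, together with proteins that destroy mRNA or switch signalling off, and, in T cells, cytokines.

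NmU raised a small group of transcripts strongly and lowered few. Signals under 5.8 were raised to that floor, log2 was taken, and 7560 of 12422 probe sets with a group mean above a signal of about 20 in NmU or in PBS were tested with limma. At an adjusted p (Benjamini-Hochberg over the 7560) under 0.05, which is what "called", "rose" and "fell" mean here, 48 probe sets were higher with NmU (0.635% of those tested) and 9 were lower (0.119%). At least 2-fold changes made up 31 of the higher and 4 of the lower calls. The called probe sets gave 45 genes, 42 raised and 3 lowered, when each gene was read through its brightest probe set. Beyond Egr1, Egr2, Fos and Nr4a1, the 4 best-known early genes, 38 other genes rose. Most of the transcriptome did not move by much: 94.3% of probe sets lay within 0.5 on the log2 scale, and the median difference over all of them was -0.04.

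**Figure D1:**
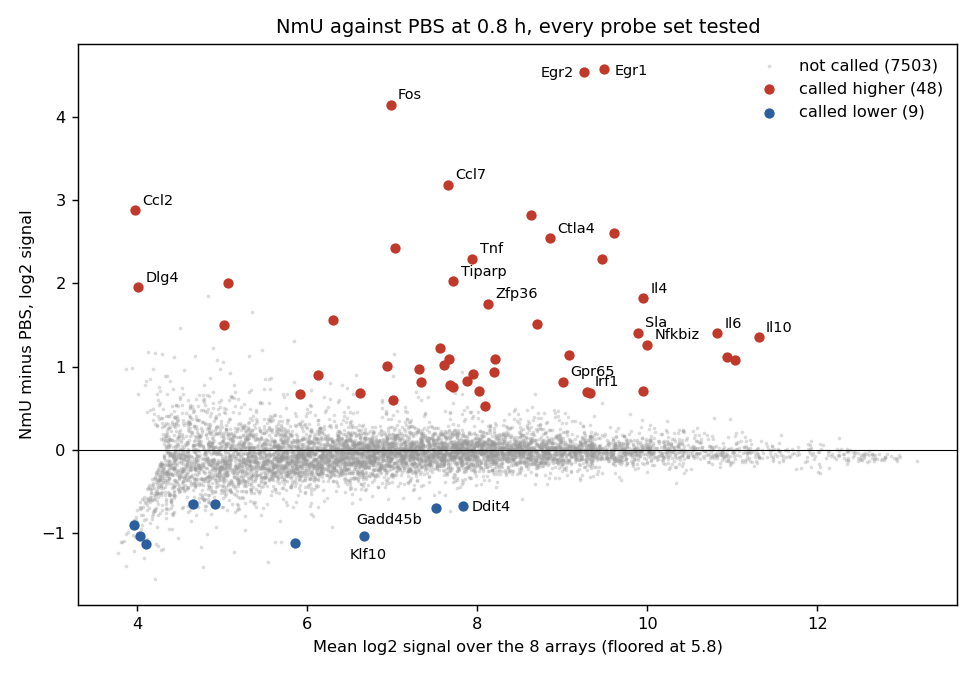
Each point is 1 of the 7560 probe sets tested, with its mean log2 signal over the 8 arrays on the x axis and its difference between NmU and PBS at 0.8 h, in log2 units, on the y axis. The 48 red points were called higher and the 9 blue points lower, and the called rises span dim transcripts such as Ccl2 and bright ones such as Il10, while the blue points lie between -0.65 and -1.13.

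The 8 arrays were alike in overall signal. Median signals lay between 35.9 and 40.2 on the NmU arrays and between 37.2 and 41.9 on the PBS arrays, and pairs of arrays correlated at 0.970 to 0.983 within NmU, 0.969 to 0.979 within PBS and 0.960 to 0.976 between the groups (correlations taken over probe sets, whose values are not independent). PBS replicate 1 was the lowest array of its group for 23 of the 42 raised genes. Of 10 T cell and Th2 markers on the array, 9 were measured, Cd5 being under that level, and their summed signal was 8894 to 9998 on NmU arrays and 6947 to 8279 on PBS arrays, with Il4 and Ccr8, both raised by NmU, among them. All 5 markers of CD8 T and NK cells were under it in both groups. Summed signals of markers were 138 to 173 on NmU arrays and 163 to 228 on PBS arrays for B cells, 282 to 305 and 259.5 to 349.6 for macrophages and dendritic cells, 118 to 134 and 128 to 165 for mast cells and granulocytes, and 456 to 536 and 507 to 618 for fibroblasts and endothelium. None of these 4 lists held a called gene. In the same order, 4 of 7, 5 of 10, 3 of 9 and 3 of 6 members on the array were measured. Among these were Cd79a (55.7 in NmU and 61.6 in PBS), Cd14 (82.6 and 87.8), Itgax (88.4 and 87.5), Elane (42.8 and 49.0), Col1a2 (370 and 416) and Pecam1 (51.3 and 61.2). Cd79b, Lyz2, Adgre1, Kit, Fcer1a, Dcn and Cdh5 were among the members under the level.

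Among immediate early transcription factors, 9 of 18 tested genes rose, 1 fell and 8 were not called, with a median difference of 0.69 on the log2 scale. This list was chosen with earlier results of these data known and includes Egr1, Egr2, Fos and Nr4a1, so its count and median are not a test. The 4 markers of the response were all raised: Egr1 averaged 3499.9 ± 164 on NmU arrays and 151 ± 34.5 on PBS arrays (SD, n = 4 each), and Egr2, Fos and Nr4a1 were raised 23.3-fold, 17.7-fold and 5.39-fold. Ier2, a nuclear immediate early protein, gave signals of 1703, 1528, 1539.9 and 1487 in NmU and 345, 309, 334 and 294 in PBS, a difference of 2.29 ± 0.10 (SE; adjusted p = 3.35e-06, limma). No NmU array came near a PBS array for this gene.

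The Fos and Jun families, which pair to form the AP-1 factors, were raised in part. For Fosl1, the Fos-related antigen 1, the 4 NmU arrays read 118, 131, 139 and 159 and the 4 PBS arrays 50.8, 50.3, 37.6 and 46.1, a 2.96-fold rise (adjusted p = 0.000435, limma) with the groups well apart. Junb, an AP-1 partner that also drives Il4 transcription in Th2 cells, read 874, 771, 761 and 815 in NmU and 422, 376, 362 and 309.8 in PBS, 2.20-fold higher (adjusted p = 0.00127, limma). Other members of the families were not called: the difference was -0.02 for Fosb (95% interval -0.52 to 0.48), 0.15 for Fosl2 (-0.25 to 0.55) and 0.01 for Jund (-0.22 to 0.24).

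Atf3, a stress-inducible repressor of the same basic leucine zipper class, rose with very little scatter, at 407, 397, 389 and 425 on NmU arrays and 203, 223, 212 and 208 on PBS arrays (1.91-fold, adjusted p = 0.000558, limma). Irf1, an interferon-inducible transcription factor, showed signals of 785, 812, 789 and 815 in NmU and 470, 488, 508 and 502 in PBS. The groups were far apart relative to their scatter, a 1.63-fold difference (adjusted p = 0.00380, limma). Crem, a gene of the cAMP response whose short product ICER represses, was 1.63-fold higher at 333 ± 15.3 in NmU and 205 ± 23.3 in PBS (adjusted p = 0.0159, limma). Nab2, the corepressor that binds Egr proteins and limits their activity, averaged 177 ± 39.5 in NmU and 87.5 ± 15.7 in PBS (2.01-fold, adjusted p = 0.0459, limma). Arid3b, a DNA-binding protein, and Cited2, which competes with other factors for the coactivators CBP and p300, were raised least, 1.52-fold (adjusted p = 0.0428) and 1.44-fold (adjusted p = 0.0351) by limma. Nab2, Arid3b and Cited2 each lost the call when any 1 of the 8 arrays was left out, with adjusted p between 0.0586 and 0.150 for Nab2, 0.0786 and 0.151 for Arid3b, and 0.0540 and 0.133 for Cited2. Crem lost it in 6 of those 8 fits (0.0538 to 0.0689), those without NmU replicates 1, 2, 3 or 4 or PBS replicates 3 or 4.

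Myc, the growth regulator that many mitogens raise in this window, was 461 ± 65.3 in NmU and 357 ± 16.6 in PBS, and its difference of 0.36 was not called (adjusted p = 0.384, limma). Nfil3 and Klf6 had non-overlapping groups and differences of 0.43 and 0.44 without a call in the 8 arrays (adjusted p = 0.116 and 0.133). Fitting all 31 arrays together, which takes the spread from every group, gave them 0.0160 and 0.0277.

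Serum response factor, a main switch of immediate early genes, binds a short A/T-rich element called the CArG box. In the 250 bases before RefSeq transcript starts (assembly GRCm38.p6), available for 28 of the 42 raised genes and 4604 of the 5670 genes tested, the consensus CArG box was found in Arid3b, Egr2 and Zfp36, 10.7% of the raised genes with a window, against 1.41% of all tested genes. The raised genes without a window, which were not searched, were Egr1, Ier2, Fosl1, Crem, Nfkbiz, Relb, Map3k8, Sla, Gem, Phlda1, Il10, Ccl2, Ccl4 and Ccl7. A gene could have several windows, 1.32 on average for raised and 1.29 for all tested genes. The windows of Egr2 (chr10:67537619-67537868, plus strand) and Zfp36 (chr7:28379229-28379478, minus strand) are shown 5′ to 3′ because they hold this box in 2 genes with strong rises; capitals mark the CArG box and any match to the other motifs named below except GGAAAA, here an ACGTCA in Egr2 and a GCGNGGGCG in Zfp36.
Egr2: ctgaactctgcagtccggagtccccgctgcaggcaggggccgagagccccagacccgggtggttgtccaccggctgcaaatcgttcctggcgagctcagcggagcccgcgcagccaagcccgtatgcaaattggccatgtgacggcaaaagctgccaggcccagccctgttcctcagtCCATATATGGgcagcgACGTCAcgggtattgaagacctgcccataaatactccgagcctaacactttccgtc
Zfp36: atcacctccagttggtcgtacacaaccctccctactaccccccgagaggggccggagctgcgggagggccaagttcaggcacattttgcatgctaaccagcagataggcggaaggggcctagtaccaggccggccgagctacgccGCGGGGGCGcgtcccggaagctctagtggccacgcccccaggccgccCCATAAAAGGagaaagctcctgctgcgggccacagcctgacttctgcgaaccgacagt
A match is a description of the letters and not a measured binding site. The Egr site GCGNGGGCG, searched on both strands like every motif here, was in 4 of the 28 raised genes (14.3%) and in 10.1% of all tested genes. For the AP-1 site TGANTCA the count was 1 of 28 (3.57%), that of Il6, against 5.89%.

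A pair of genes that shorten the life of mRNA, Zfp36 and Btg2, rose alongside the factors. Of 10 genes of RNA decay and growth restraint, 2 rose, 0 fell and 8 were not called, and the list's median was 0.07. Zfp36 encodes tristetraprolin, which binds AU-rich elements of cytokine mRNAs and brings them to the deadenylase. Its signals were 541, 434, 499 and 588 in NmU and 141, 171, 146 and 151 in PBS, so that the lowest NmU array stood far above the highest PBS array (difference 1.75 ± 0.12, adjusted p = 9.35e-05, limma). Btg2, an antiproliferative protein that also recruits the deadenylase, read 287, 254, 292 and 370 in NmU and 114, 163, 143 and 143 in PBS, 2.14-fold higher (adjusted p = 0.00947, limma). The relative Zfp36l1 gave 85.9, 85.4, 82.7 and 55.4 in NmU and 50.7, 41.6, 39 and 43 in PBS and was not called in the 8 arrays (adjusted p = 0.0762; 0.0297 with all 31 arrays and 0.00978 without NmU replicate 4), while Zfp36l2, at a difference of -0.02, Btg1, at 0.32, and Tob1, at 0.15, were also without a call. The subunits Cnot2 and Cnot7 of the deadenylase itself differed by -0.02 and -0.01.

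Some regulators of signalling also rose, with 1 call in most of the pathway lists. Over all probe sets 0.635% were called higher, and the lists were not tested against that share. Dusp1, a phosphatase that inactivates MAP kinases, read 214, 211, 212 and 222 in NmU, with hardly any spread, and 109, 137, 135 and 109 in PBS (1.76-fold, adjusted p = 0.00860, limma). It was the single call among 8 genes of MAP kinase feedback, whose median was 0.05. The abundant Dusp6 had overlapping groups and a difference of 0.38 (adjusted p = 0.5, limma). Map3k8, a kinase upstream of ERK, averaged 818 ± 65.8 in NmU and 510.0 ± 56.1 in PBS (1.61-fold, adjusted p = 0.0304, limma). That call was lost with all 31 arrays in the fit (adjusted p = 0.0626) and in 7 of the 8 fits that left out an array (0.0560 to 0.118; all but the one without PBS replicate 1), and a second, dim probe set of Map3k8 differed by -0.17.

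Cish, a SOCS family protein that dampens cytokine receptor signals, was 1.64-fold higher, with 1289, 1306, 1325 and 1171 in NmU and 772, 761, 872 and 705 in PBS (adjusted p = 0.0100, limma; 0.0538 without NmU replicate 1 and without NmU replicate 2). It was the 1 call among 10 genes of cytokine signalling feedback, whose median was -0.03. Socs1 and Socs3 were not called, at -0.22 and 0.45. Averaged over both of its probe sets, Socs3 was at 1.15 and called (adjusted p = 0.0442). Among 17 genes of the T cell receptor complex and its kinases, with a median of 0.11, the 1 call was Sla. This Src-like adaptor lowers T cell receptor levels. Its NmU arrays ranged widely, 1275, 1214, 1644 and 2237, but all lay above the PBS arrays, 399, 583, 675 and 727 (2.66-fold, adjusted p = 0.0358, limma), and the call did not survive leaving out any 1 of the 8 arrays (0.0526 to 0.117). Ptpn22, a phosphatase that restrains the same receptor, had non-overlapping groups, 772, 779, 914 and 1005 in NmU and 567, 561, 554 and 649 in PBS, and was called with all 31 arrays (adjusted p = 0.00963) but not with 8 (0.0892).

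Of the small GTPases, Rhob, which acts on actin and vesicle traffic, was 1.69-fold higher (274 ± 23.5 in NmU and 163 ± 22.6 in PBS, adjusted p = 0.0293, limma). Gem, which inhibits calcium channels, read 47.5, 49.7, 50.8 and 74.7 in NmU and 11.3, 28, 23.1 and 19.2 in PBS, a 2.83-fold rise at the edge of the threshold (adjusted p = 0.0497, limma). Both lost the call in 6 of the 8 fits that left out an array, Rhob with adjusted p of 0.0584 to 0.118 (all but those without PBS replicates 1 or 3) and Gem with 0.0945 to 0.133 (all but those without PBS replicates 1 or 2). Gem passed the filter, taken on the log2 scale, through NmU alone. Testing with no filter ended the calls of Gem and Rhob. Ppp1r15a (GADD34), the subunit that directs protein phosphatase 1 to eIF2α and so lets translation resume after stress, read 240.2, 249.6, 295 and 299.5 in NmU and 159.8, 160.2, 154 and 152 in PBS. Its PBS arrays were nearly equal and all lay under the NmU arrays (1.72-fold, adjusted p = 0.00845, limma).

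Calcium and cAMP signals reach many early genes through CREB, which binds the cAMP response element TGACGTCA. That sequence was in the windows of Btg2, Dusp1 and Ppp1r15a, 10.7% of the 28 raised genes with a window and 2.80% of all tested genes. Its shorter form TGACGT, which TGACGTCA contains, was in 8 of 28 (28.6%), adding Atf3, Cish, Egr2, Fos and Il6, against 12.0% of all tested genes. The windows of Btg2 (chr1:134079156-134079405, minus strand) and Ppp1r15a (chr7:45526269-45526518, minus strand) are printed because the full element stands in both, far from the start in Btg2 and next to it in Ppp1r15a; the other capitals in Btg2 are a GCGNGGGCG.
Btg2: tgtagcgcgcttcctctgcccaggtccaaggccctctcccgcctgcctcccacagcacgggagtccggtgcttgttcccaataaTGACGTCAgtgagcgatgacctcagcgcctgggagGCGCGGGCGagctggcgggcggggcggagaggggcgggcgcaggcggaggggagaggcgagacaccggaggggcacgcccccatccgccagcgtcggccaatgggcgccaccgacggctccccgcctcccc
Ppp1r15a: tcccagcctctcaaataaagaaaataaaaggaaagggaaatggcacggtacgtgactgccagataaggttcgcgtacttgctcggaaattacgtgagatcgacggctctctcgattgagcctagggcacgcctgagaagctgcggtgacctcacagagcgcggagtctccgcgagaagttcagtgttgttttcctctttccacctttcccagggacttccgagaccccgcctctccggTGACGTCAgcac
Of 11 genes of the cAMP and CREB pathway itself, Crem was the 1 call and the median was -0.05.

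Regulators of NF-kB included a pair of raised genes. Nfkbiz, a nuclear IkB protein needed for a second tier of NF-kB targets such as Il6, had 1510.1, 1773, 1588 and 1498 in NmU and 607, 663, 642 and 739 in PBS, a difference of 1.27 ± 0.10 with the groups far apart (adjusted p = 0.000285, limma); a second, dim Nfkbiz probe set differed by 0.06, and the mean of both was not called (0.66, adjusted p = 0.160). Relb, a subunit of the non-canonical arm, was 1.61-fold higher at 125 ± 4.61 in NmU and 78.0 ± 7.89 in PBS (adjusted p = 0.0142, limma; 0.0559, 0.0652 and 0.0627 without NmU replicate 1, NmU replicate 2 and PBS replicate 3). Relb was the 1 call in a list of 17 subunits, inhibitors and kinases, which did not include Nfkbiz and whose median was 0.07. Nfkbia, the classical inhibitor that is itself an early NF-kB target, gave 552, 550.2, 616 and 557 in NmU and 512, 491, 514 and 548 in PBS, a difference of 0.14 with a 95% interval of -0.06 to 0.34, and Nfkb2 and Bcl3 differed by 0.24 and 0.04. Ier3, a short-lived early response protein of cell survival, was 2.33-fold higher, with 269, 263, 295 and 333 in NmU and 127, 137, 115 and 117 in PBS (adjusted p = 0.000558, limma).

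The Th2 cytokines were among the raised genes at 0.8 h. Of 7 tested, Il4, Il6, Il10 and Il13 were called higher, 0 were lower, and the median difference was 1.15 on the log2 scale. That median is the value of Il3, which was not called. Over all probe sets 0.635% were called higher. This list too was chosen with earlier results of these data known, so its count and median are not a test. Il4, the cytokine that defines the Th2 lineage, gave 1909.7, 1807, 1819 and 1945 in NmU and 470.3, 529, 540.1 and 577 in PBS, 3.54-fold higher (adjusted p = 1.39e-05, limma). Il6 read 2539.8, 2999, 3097 and 3155 in NmU and 1112, 1107, 1080.2 and 1156 in PBS, and the PBS arrays were nearly equal and far under the NmU arrays (2.64-fold, adjusted p = 0.000115, limma). For Il10, the main anti-inflammatory cytokine, signals were 3926, 4325, 3838 and 4221 in NmU and 1224, 1911, 1685 and 1629 in PBS (2.56-fold, adjusted p = 0.00148, limma). Il13, the effector of mucus and airway responses, averaged 3056 ± 221 in NmU and 1459 ± 257 in PBS (2.12-fold, adjusted p = 0.00864, limma).

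None of the other Th2 cytokines tested was called. Il3, a growth factor of mast cells, read 158, 206, 188 and 229 in NmU and 44.7, 87, 111 and 133 in PBS, with non-overlapping groups but a wide spread in PBS, and was not called (1.15, adjusted p = 0.231, limma). Il5, the eosinophil growth factor, was 68.8 ± 11.3 in NmU and 63.8 ± 6.99 in PBS, a difference of 0.10 with a 95% interval of -0.22 to 0.42. Il9 was lower on all 4 NmU arrays, 28.6, 25.8, 33.2 and 28.9, than on the PBS arrays, 33.7, 46.2, 42.7 and 39.1, without a call (adjusted p = 0.245, limma).

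Of 12 other cytokines and TNF family ligands, Tnf was the single call, with 605, 579, 445 and 565 in NmU and 91.7, 123, 95.1 and 142 in PBS (4.91-fold, adjusted p = 0.000140, limma); the median of the list was 0.04. Tnfsf9, the ligand of 4-1BB, had 69.5, 67.7, 65 and 90.4 in NmU and 30.5, 40, 25.7 and 8.9 in PBS, where replicate 4 was far under the others, and was called with all 31 arrays (adjusted p = 0.00884) or without that array (0.0344) but not with all 8 (0.173). Csf1, the growth factor of macrophages, was not in the list of 12. It rose 1.77-fold with little scatter, at 308, 314, 327 and 302 in NmU and 167, 188, 196 and 157 in PBS (adjusted p = 0.00497, limma).

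Chemokines included the steepest rises outside the Egr and Fos genes. Of 17 on the array, 10 did not pass the filter. Of the 7 tested, 3 rose, 0 fell and 4 were not called, and the median difference was 0.78. Ccl2 and Ccl4 were tested only because their NmU signal passed the filter, so this count and median follow in part from the filter. Ccl7, which attracts monocytes and eosinophils, read 663, 679.9, 524 and 581 in NmU and 37.4, 82.1, 76.3 and 85.3 in PBS (9.10-fold, adjusted p = 0.000254, limma), where PBS replicate 1 stood at less than the other PBS arrays. Ccl2, its neighbour in function, gave 36.9, 37.6, 51.5 and 46 in NmU, whereas all 4 PBS arrays (1.7, 4.4, 3.6 and 2.6) lay under the floor of 5.8, so that it was at least 7.34-fold higher (adjusted p = 3.35e-06, limma). Ccl4, a chemokine of monocytes and T cells, was dim in both groups, 62, 66.4, 71.3 and 68.9 in NmU and 11.7, 27, 11.6 and 21.2 in PBS, and rose 4.02-fold (adjusted p = 0.00845, limma). It passed the filter through NmU alone, and its adjusted p was 0.0665 with no filter. Ccl3 and Ccl1, at 0.78 and 0.74, had groups that did not overlap and were not called (adjusted p = 0.196 and 0.435, limma). Ccl22, a ligand of Ccr4, differed by -0.29 with overlapping groups.

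The NF-kB consensus site was in the windows of 8 of the 28 raised genes, those of Csf1, Dlg4, Egr2, Fos, Gch1, Ier3, Il6 and Irf1 (28.6%), and in 10.6% of all tested genes. The windows of Ier3 (chr17:35821463-35821712, plus strand) and Il6 (chr5:30012864-30013113, plus strand) are printed as an early survival gene and a cytokine that share it; in Il6 the other capitals are a TGANTCA and the reverse complement of TGACGT.
Ier3: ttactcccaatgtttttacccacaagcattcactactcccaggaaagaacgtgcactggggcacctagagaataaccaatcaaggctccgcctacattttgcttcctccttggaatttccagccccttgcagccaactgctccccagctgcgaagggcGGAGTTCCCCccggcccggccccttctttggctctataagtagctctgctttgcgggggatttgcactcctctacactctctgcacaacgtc
Il6: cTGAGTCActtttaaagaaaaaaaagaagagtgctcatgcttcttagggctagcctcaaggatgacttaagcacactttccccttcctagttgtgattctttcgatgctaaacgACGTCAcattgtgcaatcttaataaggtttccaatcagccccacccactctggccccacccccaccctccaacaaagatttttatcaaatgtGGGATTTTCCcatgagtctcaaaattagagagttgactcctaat
The NFAT core GGAAAA, to which the calcium-activated factor of T cells binds, was in 8 of 28 (28.6%), including Ctla4, Il4, Il13 and Tnf, against 22.1% of all tested genes. The TATA box TATAAA was in 6 of 28 (21.4%) and in 8.58% of all tested genes.

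Few of the receptors tested were called, which does not show that the others were unchanged. Ctla4, the inhibitory receptor that competes with Cd28 for its ligands, gave 1226, 1114, 1119 and 1029 in NmU and 140.2, 183, 242 and 221 in PBS, 5.82-fold higher (adjusted p = 7.59e-05, limma). It was the 1 call among 15 activation and inhibitory receptors, whose median was 0.05; Il2rb, Tnfrsf4 and Il7r differed by 0.15, 0.29 and 0.15. Ccr8, the receptor for Ccl1 that marks Th2 cells, read 426, 448, 402 and 464 in NmU and 161, 198, 254 and 209.7 in PBS (2.14-fold, adjusted p = 0.00706, limma) and was the 1 call among 12 chemokine and adhesion receptors. Cxcr4 and Ccr1, with differences of 0.61 and 0.52, had groups apart but no call (adjusted p = 0.173 for Cxcr4 and 0.173 for Ccr1, limma). With a group mean over 100 as the filter their adjusted p were 0.0465 and 0.0496. Itga4 and Cd44, at -0.38 and -0.44, lay apart on the lower side, also without a call (adjusted p = 0.156 and 0.257; Itga4 had 0.0485 with no filter on low values). Gpr65, a proton-sensing receptor of lymphocytes, read 690, 662, 754 and 641 in NmU and 403, 357, 379.6 and 417 in PBS, with the groups apart (1.76-fold, adjusted p = 0.00423, limma). Lilr4b, an inhibitory receptor, gave 83.8, 106, 76.9 and 75.1 in NmU and 52.3, 60.2, 49.6 and 43.7 in PBS and was called with 31 arrays (adjusted p = 0.00370) but not with 8 (0.0762).

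The NmU receptor itself was measured, and no difference was detected. Nmur1 gave 163, 184, 211 and 212 in NmU and 158, 228, 199.8 and 219.7 in PBS, overlapping throughout, a difference of -0.06 with a 95% interval of -0.39 to 0.27.

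**Figure D2:**
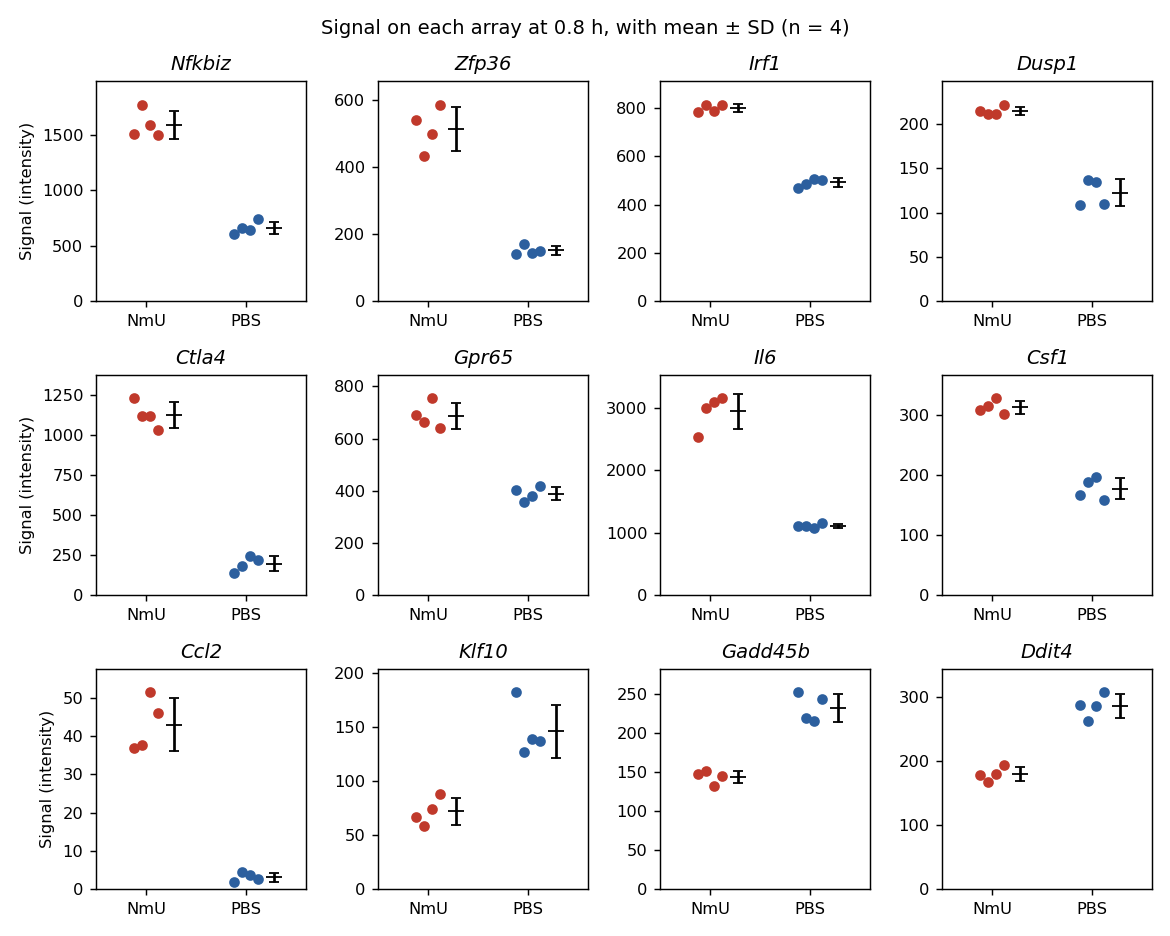
Each panel shows the deposited signal (intensity, linear scale from 0) of 1 gene on the 4 NmU arrays (red) and the 4 PBS arrays (blue) at 0.8 h, with the mean and SD beside them. In all 12 panels the groups are apart, as in all 57 called probe sets. Of these genes 9 are higher with NmU, from Nfkbiz and Ctla4 to the dim Ccl2, and Klf10, Gadd45b and Ddit4 are lower.

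Among delayed early genes and effectors of the first wave, 5 of 16 rose and 11 were not called, with a median of 0.46. Over all probe sets 0.635% were called higher. Gem passed the filter through NmU alone, so this count and median follow in part from the filter. With an array left out the list held 3 to 4 calls. Tiparp, an ADP-ribosyltransferase that feeds back on the aryl hydrocarbon receptor, read 479.7, 533, 322 and 397 in NmU and 108, 84.1, 112 and 117 in PBS (4.08-fold, adjusted p = 0.000435, limma). Phlda1, a gene that T cell receptor stimulation induces in hybridomas, averaged 2911 ± 436 in NmU and 1349.7 ± 222 in PBS (2.16-fold, adjusted p = 0.00947, limma). Gch1, which makes the first step of tetrahydrobiopterin synthesis, was 1.87-fold higher with 107, 96, 82.3 and 97.8 in NmU and 56.7, 48.5, 55.9 and 44.2 in PBS (adjusted p = 0.00947, limma). The remaining 2 calls of the list were Gem and Cited2. Sgk1, a kinase of ion transport, read 31.3, 33.5, 41.1 and 38.8 in NmU and 17.3, 19, 23.8 and 24.8 in PBS, apart but not called (adjusted p = 0.0663, limma). Plk2 was at -0.76 and Errfi1 at 0.85, also without a call (adjusted p = 0.676 and 0.173).

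Further raised genes lay outside these groups. Cflar, the inhibitor of caspase-8 known as FLIP, was the 1 call among 20 apoptosis regulators, with 225, 225, 203 and 241 in NmU and 91, 136, 131 and 102 in PBS (1.96-fold, adjusted p = 0.0152, limma), and its adjusted p was 0.0634, 0.0652, 0.0584 and 0.0560 without NmU replicates 1, 2 and 4 and without PBS replicate 4. Mcl1 and Bcl2l11 were not called, at 0.26 and -0.47. Dlg4, better known as the synaptic scaffold PSD-95, was near the floor, at 24.1, 30.1, 24.2 and 57.7 in NmU and 7.5, 10.2, 4.1 and 10.2 in PBS (1.95 on the log2 scale, adjusted p = 0.0190, limma). With the floor at the filter level in place of 5.8, its difference was 0.65 and was not called (adjusted p = 0.502). Dlg4 passed the filter through NmU alone, and testing with no filter ended the call. Leaving out NmU replicate 2, PBS replicate 1 or PBS replicate 3 also ended that call (0.0709, 0.0679 and 0.0627).

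The genes that fell, when read through their brightest probe set, were Klf10, Gadd45b and Ddit4. Klf10, a zinc finger factor induced by TGF-beta, gave 66.7, 58.6, 74.3 and 87.8 in NmU and 183, 127, 139 and 137 in PBS, 2.04-fold lower (adjusted p = 0.0190, limma). A second Klf10 probe set behaved alike, with 40.4, 39.6, 35.1 and 42.6 in NmU and 93.1, 92.4, 73.6 and 83.5 in PBS (difference -1.12, adjusted p = 0.00127, limma). Gadd45b, an activator of the p38 and JNK kinases, read 147, 151, 132 and 144 in NmU and 252, 218, 215 and 243 in PBS, 1.62-fold lower (adjusted p = 0.0100, limma), and its second probe set was not called at -0.58 (adjusted p = 0.0570). Ddit4 (REDD1), an inhibitor of mTORC1, read 178, 167, 179.7 and 195 in NmU and 288, 264, 287 and 308 in PBS, 1.59-fold lower (adjusted p = 0.0104, limma). In all 3 genes every NmU array was under every PBS array, and the groups were likewise apart in all 57 called probe sets.

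The calls of these falls varied with the processing. Scaling the arrays to a common median ended the calls of Gadd45b and Ddit4 (differences of -0.61 and -0.59) and left that of Klf10, which was lost with no filter on low values (adjusted p = 0.0826). With replicate number as a block none of the 3 was called (adjusted p = 0.0688 for Klf10, 0.0569 for Gadd45b and just over the threshold for Ddit4). Without 1 array, Klf10 had adjusted p of 0.0759, 0.0652, 0.0565, 0.0627 and 0.0536 (NmU replicates 1, 2 and 3, PBS replicates 3 and 4), and Ddit4 had 0.0551, 0.0538 and 0.0502 (NmU replicates 1 and 2, PBS replicate 3).

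Over the 18 tested genes of stress and growth arrest, 1 rose (Ppp1r15a), 2 fell and the median was -0.10. Groups in that list were apart in both directions, 4 genes with every NmU array higher and 5 with every NmU array lower. In the list of 14 quiescence genes these counts were 3 and 1. Over all probe sets the shares were 2.67% higher and 2.54% lower, and the lists were not tested against them. Txnip, an inhibitor of glucose uptake, read 103, 125, 110.1 and 123 in NmU and 197, 186, 156 and 150.1 in PBS (difference -0.58, adjusted p = 0.101, limma), and Sesn1 and Gadd45g differed by -0.46 and -0.73 (adjusted p = 0.156 and 0.159). Ndrg1, with 239, 294, 327 and 415 in NmU and 129, 195, 158 and 179.5 in PBS, was higher and not called (0.93, adjusted p = 0.0800, limma), as were Trib3 at 0.46 and Ppp1r15b at 0.35. S1pr1, the receptor by which T cells leave lymph nodes, read 12.7, 17.2, 13.8 and 17.7 in NmU and 33.5, 20.8, 28.6 and 25.4 in PBS, both near the filter level (adjusted p = 0.0984, limma). Gfi1, a transcriptional repressor that promotes Th2 cell growth, was lower at 131 ± 15.8 in NmU and 179.8 ± 19.7 in PBS and was called with all 31 arrays (adjusted p = 0.0372) but not with 8 (0.221). Tgif1, a corepressor of the TGF-beta pathway in whose list Klf10 was the only call of 12, was at 0.70 (adjusted p = 0.0762; 0.0102 with all 31 arrays and 0.0270 without PBS replicate 1).

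Across all probe sets, groups that did not overlap were about as frequent downward as upward: 202 probe sets (2.67%) had every NmU array above every PBS array, and 192 (2.54%) had every NmU array below. At an unadjusted p under 0.05 there were 272 higher and 368 lower probe sets. Calls depended on signal. Of the 48 rises, 27 had a mean signal between 200 and 1000 and 5 above 1000, where 2251 and 543 probe sets lay; of the 9 falls, 5 lay at 50 or under, among 1920 probe sets.

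Of the pathway lists, 8 held no called gene: calcineurin and NFAT (10 genes tested, median difference -0.14), Gq, phospholipase C and protein kinase C (20, -0.04), cytoskeletal targets of serum response factor (12, 0.02), MYC and ribosome biogenesis (20, 0.03), glycolysis (15, 0.08), cholesterol synthesis (13, -0.04), DNA replication and G1/S (21, -0.04) and mitosis and G2/M (21, -0.04). At an unadjusted p under 0.05 by limma they held 2, 2, 1, 2, 3, 1, 0 and 0 genes in that order, and with all 31 arrays each held 0 called genes. Over all probe sets only 0.635% were called higher and 0.119% lower, so lists of this size would on average hold less than 1 call and the counts of 0 do not set them apart. Slc2a1, the main glucose transporter of activated T cells and a member of the glycolysis list, came nearest, with 200, 191, 245 and 199 in NmU and 128, 123, 143 and 94.7 in PBS (difference 0.78, adjusted p = 0.0570, limma), and it was called in 7 of its 18 alternatives, among them a common median (0.0212), quantile normalisation (0.0479) and a group mean over 100 (0.00850).

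Of 16 genes of Th2 identity, 3 were called (Junb, Crem and Ccr8), with a median of 0.05. Of 20 interferon regulatory factors and induced genes, Irf1 was the 1 call, and the median was 0.11; Ifit1 and Irf7 overlapped between groups at 0.47 and 0.25. Of 12 glucocorticoid response genes, Dusp1 rose and Ddit4 fell, and Btg2 was the 1 call among 14 quiescence genes. Medians of these lists were 0.14 and 0.03.

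**Figure D3:**
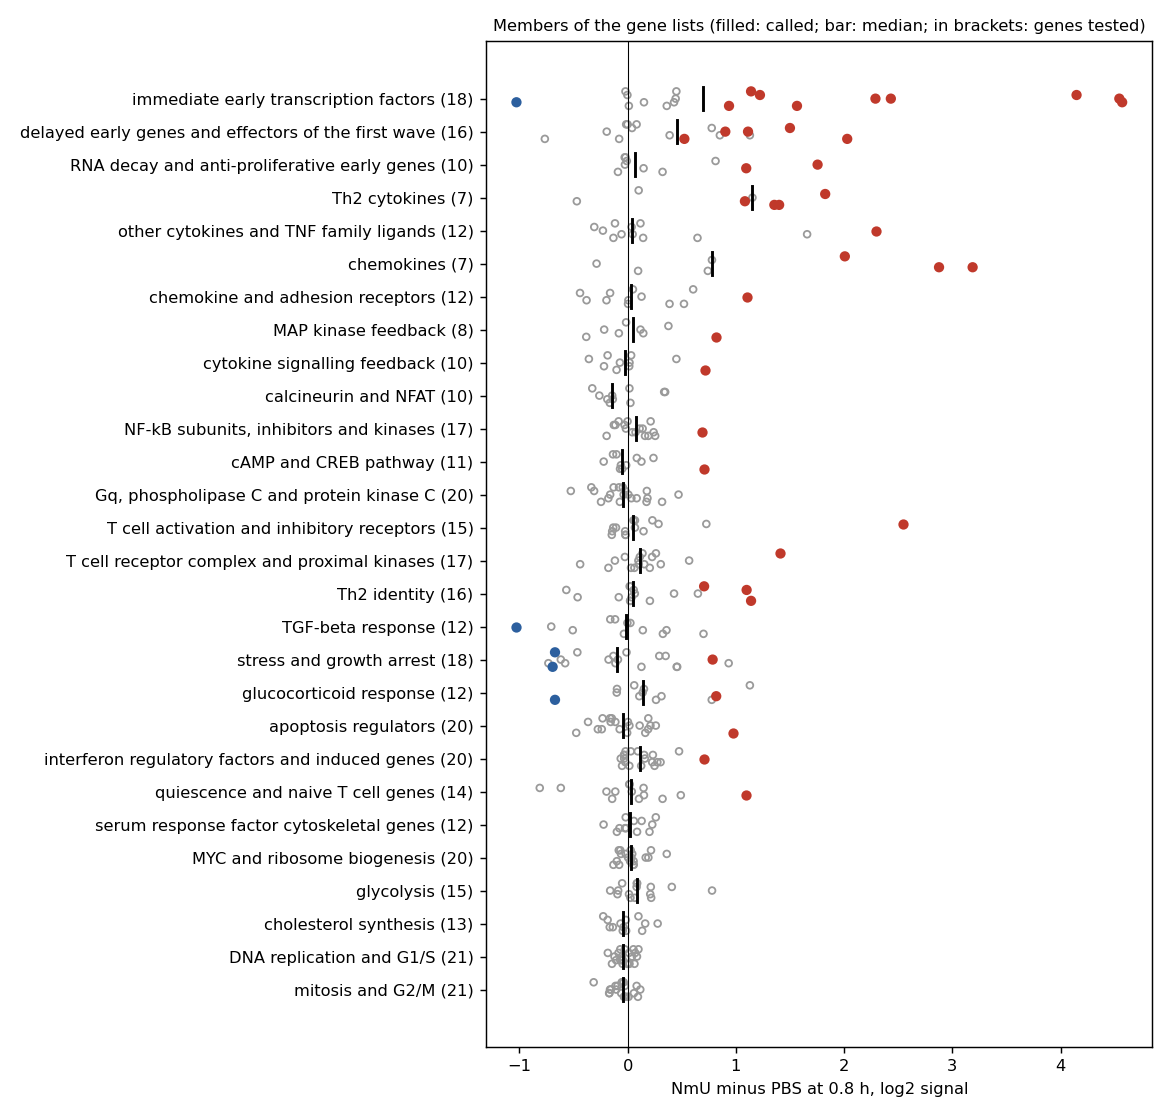
Each row is a list of genes with the number tested in brackets, and each point a gene at its difference between NmU and PBS at 0.8 h in log2 units on the x axis. Filled points were called, red higher and blue lower, open points were not, and the black bar is the median. Immediate early factors, Th2 cytokines and chemokines have medians of 0.69, 1.15 and 0.78, while the medians of the lists from glycolysis to mitosis lie within 0.10 of 0 and these lists hold no filled point. The lists were chosen with earlier results of these data known. Immediate early factors include the 4 markers of the response, and the chemokines Ccl2 and Ccl4 passed the filter through NmU alone. The medians are therefore a description and not a test.

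Several called genes had a further probe set. Il4 had 4 measured probe sets in all. The one next in brightness gave 1032, 1069.9, 1102 and 1015 in NmU and 100.2, 172, 178 and 161 in PBS, a larger difference (2.82, adjusted p = 6.05e-05, limma) than the brightest one. The other 2 were far dimmer and not called, at 0.97 and 0.21 (adjusted p = 0.208 and 0.676, limma). A further Crem probe set was not called at 0.50 (adjusted p = 0.0920). Further probe sets of Junb and Atf3 were called at 1.52 and 0.68. Evi2a was called through a dimmer probe set (0.91) but not its brighter one (0.68). Gal, Prdx2, Tpp2 and Lrrfip1 were called lower through dim probe sets, at -0.65, -0.65, -1.03 and -1.13, while their brighter probe sets differed by -0.09, -0.07, 0.14 and -0.10, so that the genes are not counted as lowered. The called probe sets 99915_at (difference 2.60), 101469_at (1.02) and 100321_f_at (-0.89) carry no single gene symbol in the array annotation.

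The later arrays show what became of the first wave. They are other samples, with PBS controls of their own at each time, and their effects come from a fit of all 31 arrays. Of the 42 raised genes, 29 were called higher at 3 h (69.0%, against 4.64% of all probe sets), 19 at 6 h (45.2%, against 3.02%) and 7 at 12 h (16.7%, against 0.899%), and 0 were called lower at any of these times. Their median difference was 1.18 at 0.8 h, 1.05 at 3 h, 0.51 at 6 h and 0.10 at 12 h. The value at 0.8 h comes from the arrays by which these genes were chosen, and that choice favours a high value. NmU replicate 4 at 6 h stood apart with high early genes (Egr1 at 1587, against 148 to 170 on the other 3). Without it the 6 h count was 15, the median 0.40 and the 3 h count 31.

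The 42 raised genes were chosen by their difference on the 0.8 h arrays, which also enter the comparison with 3 h. That choice favours smaller effects at 3 h, so the split by direction is a description and not a test. A direct test of the effect at 3 h minus the effect at 0.8 h called 265 probe sets (3.51%). Among the 42 raised genes it called 14. The effect was smaller at 3 h for 11: Egr1, Egr2, Fos, Ier2, Zfp36, Nfkbiz, Junb, Irf1, Dusp1, Btg2 and Map3k8. Nfkbiz, for example, was 545 ± 46.6 in NmU and 567 ± 52.9 in PBS at 3 h (change of effect -1.32 ± 0.25, adjusted p = 0.00239, limma), and Zfp36 was 181 ± 25.2 in NmU and 129 ± 24.9 in PBS (-1.26 ± 0.23, adjusted p = 0.00204). Map3k8, Dusp1, Irf1, Nfkbiz and Btg2 had point estimates under 0 by 3 h, at -0.29, -0.21, -0.12, -0.06 and -0.01, which were not called. The difference of Map3k8 was lost in 7 of the 15 fits that left out a 0.8 or 3 h array (adjusted p 0.0570 to 0.0692).

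The effect was larger at 3 h for 3 raised genes. Il4 averaged 3284 ± 609.8 in NmU and 505 ± 76.5 in PBS at 3 h (n = 3 and 4), a change of effect of 0.87 ± 0.16 (adjusted p = 0.00169, limma). Gch1 was 175 ± 22.9 in NmU and 50.9 ± 1.08 in PBS (0.87 ± 0.14, adjusted p = 0.000535). Crem, at 513 ± 47.6 in NmU and 205 ± 36.3 in PBS, had a change of 0.63 ± 0.16 (adjusted p = 0.0251) that was lost in 4 of the 15 fits with an array left out (0.0569 to 0.0941). For the other 28 raised genes the change was not called, which does not show that the effects were equal.

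The genes called higher at 3, 6 and 12 h as well were 7, most of them cytokines or a chemokine: Il4, Il6, Il10, Il13, Ccl4, Gch1 and Gem. Gem reached 200.1 ± 47.2 in NmU and 18.9 ± 7.22 in PBS at 6 h. The 12 raised genes called at no later time were Fos, Zfp36, Nfkbiz, Irf1, Gpr65, Ppp1r15a, Dusp1, Btg2, Cish, Dlg4, Map3k8 and Sla. This list depends on the arrays in the fit. Without NmU replicate 4 at 6 h it held 10 genes, Fos and Zfp36 then being called higher at 3 h (adjusted p = 6.70e-05 and 0.0163, limma). For Fos the 3 h signals were 59.5, 65.5 and 50.2 in NmU and 28.4, 20.5, 26.9 and 27.4 in PBS, apart in every array, and that 6 h array read 337 against 28.5 to 33.6 on the other 3. Without PBS replicate 4 at 3 h the list held 12, with Egr1 in place of Cish.

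**Figure D4:**
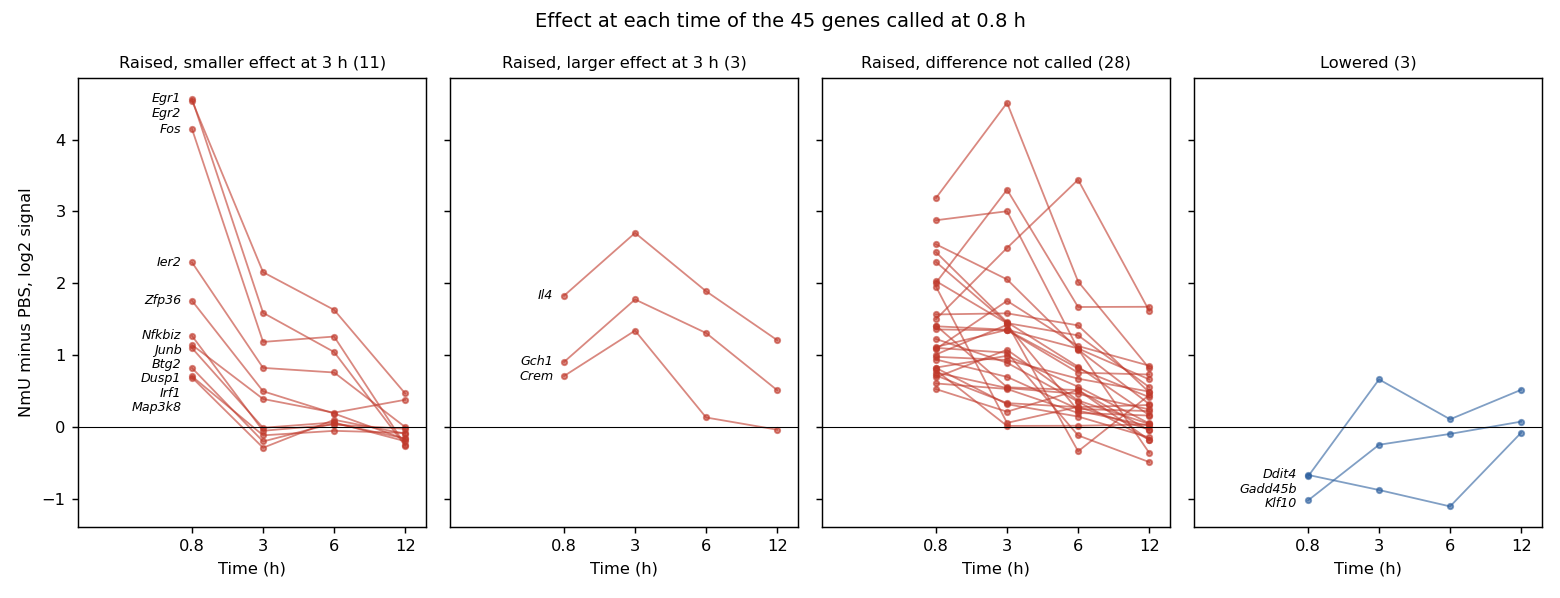
Lines join the differences between NmU and PBS, in log2 units on the y axis, of the 45 called genes at 0.8, 3, 6 and 12 h on the x axis (evenly spaced, not to scale). From left, the panels hold the 11 raised genes with a smaller effect at 3 h, the 3 with a larger one, the 28 whose change was not called, and the 3 lowered genes.

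The lowered genes took separate courses. Gadd45b was higher with NmU at 3 h, at 430.3 ± 32.1 in NmU and 273 ± 26.7 in PBS, and the turn from lower to higher was called (change of effect 1.35 ± 0.16, adjusted p = 2.5e-05, limma). Klf10 was 180.1 ± 13.8 in NmU and 215 ± 28.9 in PBS at 3 h, no longer called lower (change 0.78 ± 0.22, adjusted p = 0.0437), a change lost in 12 of the 15 fits with an array left out (0.0521 to 0.113). Ddit4 remained lower at 3 h, at 244 ± 25.2 in NmU and 454 ± 92.6 in PBS, and at 6 h, at 284 ± 20.4 in NmU and 611 ± 24.1 in PBS (differences of -0.88 and -1.11, adjusted p = 5.08e-05 and 1.55e-06, limma), and by 12 h the groups were 473 ± 83.1 in NmU and 499 ± 67.0 in PBS. In PBS its mean signal was 287 ± 18.1 at 0.8 h, so the control level itself differed between times.

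**Figure D5:**
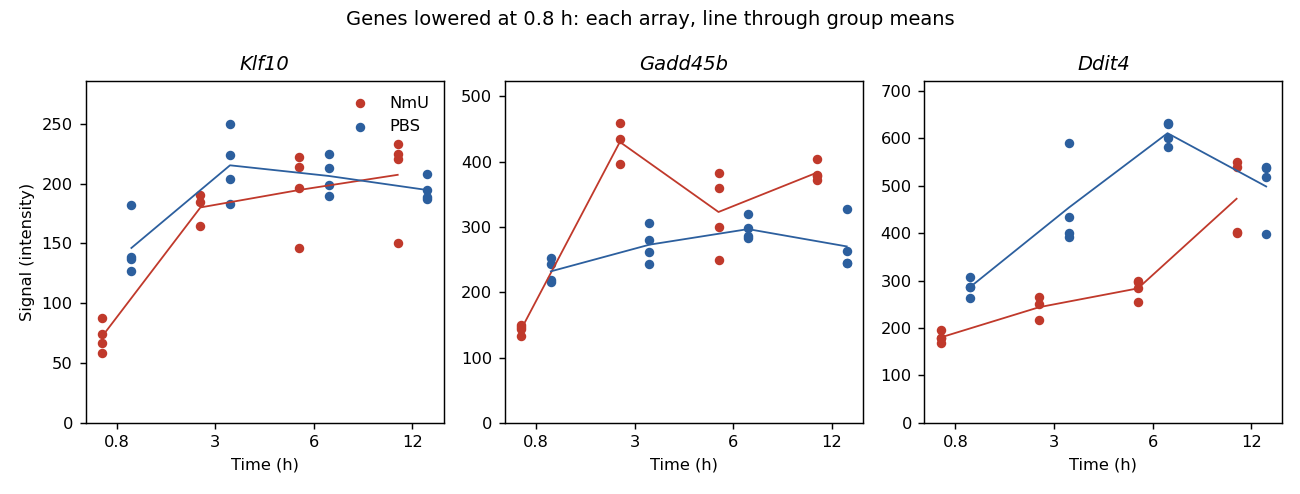
Each panel shows the deposited signal (intensity, from 0) of Klf10, Gadd45b or Ddit4 on every array of NmU (red) and PBS (blue) at 0.8, 3, 6 and 12 h on the x axis (evenly spaced, not to scale), with lines through group means. All 3 start lower with NmU at 0.8 h; the Gadd45b means cross by 3 h, while those of Ddit4 stay apart through 6 h.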

How the data were processed

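The files held 1-colour array intensity values as deposited by the authors, on a linear scale and never negative, in a single table of 31 arrays; no label or header names the scanner, the way probes were summarised or the scaling. The means of the 8 arrays of 0.8 h after trimming both ends lay between 150.095 and 150.113, so the deposited arrays share a common mean, and a difference is relative to the other transcripts. Groups and replicate numbers came from the sample titles. The members and gene lists were chosen with earlier results of these data known.

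Intensities were raised to a floor of 5.8 (the 20th percentile) and put on a log2 scale; 66 control probe sets were left out, and the 7560 of 12422 with a group mean over the 40th percentile (a signal of about 20) were kept. Of these, 6807 had 1 gene symbol, 267 several and 486 none in the array annotation, and 5670 genes were tested. NmU minus PBS was fitted to the 8 arrays in R 4.3.3 with limma 3.58.1, by lmFit and eBayes with 6 residual degrees of freedom and 3.01 from the prior, two-sided, with Benjamini-Hochberg adjustment over all kept probe sets. Effects at other times and their differences came from a fit of all 31 arrays over the same probe sets. A fold change is on the floored scale, which understates changes of dim transcripts. The text names all called genes through their brightest probe set, up to 6 members of each of 35 lists with the lowest p, the Th2 cytokines, the NmU receptor, and some of the genes whose call an alternative changed; other genes named were chosen after their values were seen. Alternatives were the arrays fitted, scaling, floor, filter, variance prior, a replicate block, each array left out, and the choice of probe set. The procedure was tested on simulated data. The number of arrays limits the precision. Promoter windows and gene names came from RefSeq tables of GRCm38.p6, whose Entrez numbers matched 10817 of 10833 probe sets with 1 symbol.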

Additional observations from a re-analysis of the deposited data

Results flagged for a closer look

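The effect of NmU differed between 3 h and 0.8 h for 16 of the 45 genes called at 0.8 h, by a test of the difference itself in the fit of all 31 arrays (adjusted p under 0.05). The effect at 3 h minus the effect at 0.8 h, in log2 units, was negative for Egr1 (-2.98), Fos (-2.96), Egr2 (-2.39), Ier2 (-1.47), Nfkbiz (-1.32), Zfp36 (-1.26), Btg2 (-1.11), Dusp1 (-1.02), Map3k8 (-0.98), Irf1 (-0.82) and Junb (-0.75). It was positive for the raised genes Il4 (0.87), Gch1 (0.87) and Crem (0.63) and for the lowered genes Gadd45b (1.35) and Klf10 (0.78). All 45 genes were chosen by their difference at 0.8 h, which favours a weaker effect at 3 h.

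In 4 of the 90 groups of 4 arrays examined for the called genes, 1 array stood far from the other 3, and chance gives about 1 in 20. Gem had a signal of 74.7 on NmU replicate 4, against 47.5 to 50.8 on the other NmU arrays. Arid3b had 91.2 on PBS replicate 4, against 108 to 110.4 on the other PBS arrays. Ccl7 and Il13 had 37.4 and 1079 on PBS replicate 1, against 76.3 to 85.3 and 1530 to 1629 on the other PBS arrays. Without PBS replicate 1 both Ccl7 and Il13 were still called higher.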

How the results depend on the processing

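The count of 48 probe sets called higher was 63 with all 31 arrays in the fit, 61 with arrays scaled to a common median, 55 with quantile normalisation, 52 with the floor at the filter level, 60 with log2(intensity + 16), 46 with no filter, 69 with a group mean over 100, 64 with a trended and robust prior, 47 at 1.5-fold or more, and 35 to 50 with each array left out. The count of 9 called lower was 5 with all 31 arrays, 4 with a common median, 5 with quantile normalisation and 14 with a group mean over 100, and ranged from 2 to 11 with an array left out; it was 3 without NmU replicate 1, 2 without NmU replicate 2, 5 without NmU replicate 3 and 3 without PBS replicate 3. The cause was not tested. The count of 265 probe sets whose effect differed at 3 h was 173 with a common median, 130 with only the 15 arrays of 0.8 and 3 h, and 186 to 374 with an array left out.

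Same-numbered NmU and PBS arrays had correlations of 0.109, 0.0547, 0.0911 and 0.217 between their deviations from group means, 2 of them over 0.1, which does not settle whether the numbers pair the samples; they were treated as names. With replicate number as a block, 34 probe sets were higher and 2 lower, and the differences at 3 h numbered 308. The block ended the calls of Arid3b, Btg2, Ccr8, Cflar, Cited2, Crem, Ddit4, Dusp1, Gadd45b, Gch1, Gem, Il13, Klf10, Map3k8, Ppp1r15a, Relb and Rhob. Testing with no filter ended those of Arid3b, Ccl4, Cflar, Dlg4, Gem, Klf10, Map3k8, Nab2, Rhob and Sla.

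Of the 45 called genes, 22 kept the call in every alternative run for them and 23 lost it in at least 1, with 0 turned in direction; 31 kept it with each single array left out. Of the 16 differences at 3 h, 12 were kept in every alternative, and those of Crem, Junb, Klf10 and Map3k8 were not.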
